A study of Rattus norvegicus with 10 samples.

Results

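The genes described here are Mov10 and 9 genes of the small RNA silencing machinery, namely Drosha and Dgcr8, Dicer1, Ago1, Ago2 and Ago3, and Tnrc6a, Tnrc6b and Tnrc6c. These 10 of the 23918 genes in the table were chosen by symbol, and Mov10 was selected on its rise in the comparison below, so its values are given as a description with no test. All 10 had enough reads to be tested. RNA-seq was done on adult Sprague-Dawley rat β-cells, which make insulin in the pancreatic islet, sorted from dispersed islet cells on their autofluorescence. The cells were transfected with Lipofectamine RNAiMAX and RNA was taken 48 h later. The 5 siCtrl libraries (replicates 1 to 5) came from cells given a negative control siRNA, and the 5 siScrt1 libraries (replicates A to E) from cells given a pool of 4 siRNAs against Scrt1, which encodes a transcriptional repressor. Every library therefore comes from cells that had received a siRNA, and untransfected cells were not analysed here.

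MicroRNAs are cut from their primary transcripts in the nucleus by the microprocessor, made of the nuclease Drosha and its RNA-binding partner Dgcr8. Dicer1 then cuts the hairpin in the cytoplasm, and an Argonaute protein takes up 1 strand as the guide. Proteins of the GW182 family, encoded by the Tnrc6 genes, join Argonaute to the deadenylases that shorten the tail of the target mRNA. Mov10 is an RNA helicase that associates with Argonaute proteins, and is also known for restricting retroelements and for its induction by interferon in some cells. In β-cells, microRNAs made by Dicer1 are needed to keep the cells differentiated.

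Promoters are shown for 3 of the genes because the window of Mov10 differs visibly from those of its partners. RefSeq promoter windows, which run from 250 bases before to 50 bases after the annotated gene start on the GRCr8 assembly, were matched for 7 of the 10 genes (not Ago2, Tnrc6b or Tnrc6c). The windows of Mov10 (chr2:195003128-195003427, minus strand), Ago3 (chr5:143998688-143998987, minus strand) and Dicer1 (chr6:129457203-129457502, minus strand) are written 5′ to 3′ with each CG dinucleotide in capitals.
Mov10: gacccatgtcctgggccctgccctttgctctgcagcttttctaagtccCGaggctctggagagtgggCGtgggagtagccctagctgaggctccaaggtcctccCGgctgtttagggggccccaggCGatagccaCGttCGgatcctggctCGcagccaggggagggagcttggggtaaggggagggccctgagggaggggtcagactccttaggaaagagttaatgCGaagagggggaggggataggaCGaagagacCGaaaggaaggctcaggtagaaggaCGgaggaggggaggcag
Ago3: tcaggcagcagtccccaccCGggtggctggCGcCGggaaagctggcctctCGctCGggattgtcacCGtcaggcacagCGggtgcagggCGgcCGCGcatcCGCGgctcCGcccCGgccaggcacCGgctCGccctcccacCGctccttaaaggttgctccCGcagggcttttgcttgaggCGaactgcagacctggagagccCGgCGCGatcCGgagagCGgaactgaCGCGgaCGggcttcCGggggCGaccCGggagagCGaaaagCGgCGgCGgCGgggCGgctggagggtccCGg
Dicer1: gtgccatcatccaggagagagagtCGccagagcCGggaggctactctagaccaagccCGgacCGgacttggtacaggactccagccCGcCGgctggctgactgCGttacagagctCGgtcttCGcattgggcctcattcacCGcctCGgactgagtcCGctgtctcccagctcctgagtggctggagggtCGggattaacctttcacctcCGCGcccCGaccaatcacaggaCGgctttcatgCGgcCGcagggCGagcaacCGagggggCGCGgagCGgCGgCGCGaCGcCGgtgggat

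The Mov10 window held 11 CG dinucleotides. The other 6 windows held between 24 (Drosha) and 41 (Dgcr8), with 30 in Ago1, 29 in Dicer1, 37 in Ago3 and 30 in Tnrc6a. The median over all 33469 windows was 7, and 37.1% of them held more CG than Mov10 while 2.40% held more than Dgcr8. Mov10 was thus the least CG-rich of the 7, although its window was not poor in G and C, at 62.7% against 59.0% to 73.3% in the others. Each window stands for 1 annotated start per gene, and whether the β-cells use that start cannot be read from these data.

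**Figure D1:**
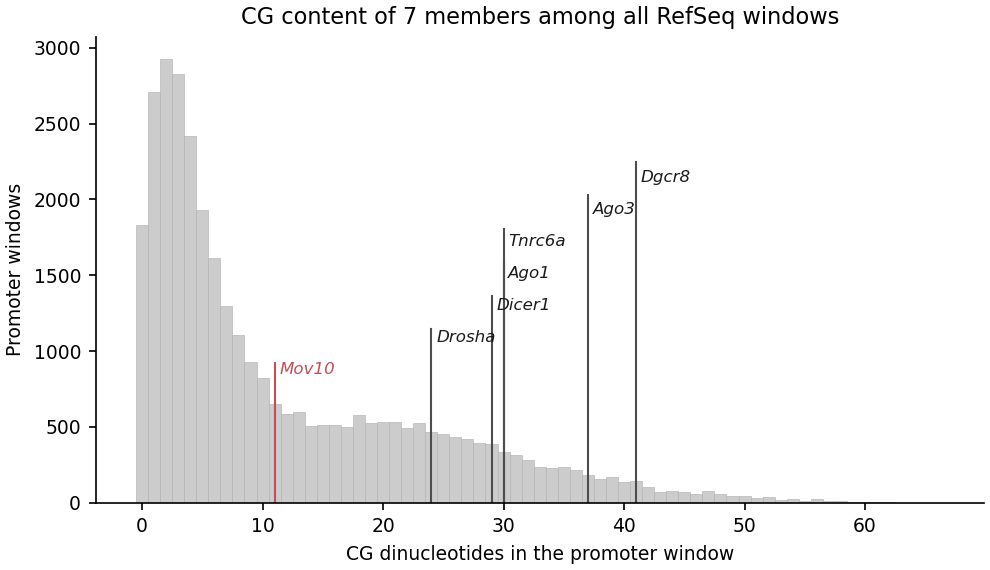
Number of CG dinucleotides in 300-base promoter windows (x axis) against the number of RefSeq windows (y axis); grey bars are all 33469 windows and vertical lines the 7 genes, with line heights chosen only to separate the names. Mov10, at 11, lies to the left of the other 6 genes, which lie between 24 and 41.

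The binding motif listed for SCRT1 in the study has the following consensus, in which the capitals mark its E-box core, CAGGTG.
SCRT1 motif: gagcaaCAGGTGgtt

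The letters CAGGTG were searched on both strands. They were in 18.8% of all windows and in 0 of the 7 windows matched. The longer stretch CAACAGG from the same consensus, which overlaps that core, was in 4.33% of all windows and again in 0 of the 7. The shorter CAGGT was in 48.8% of all windows and in 3 of the 7. In Mov10 it begins 21 bases after the annotated start on the gene's own strand and is followed by A, as can be seen near the end of the sequence above, and in Ago3 and Drosha it lies on the opposite strand and is followed by C. These matches describe letters in a 300-base window and nothing beyond it.

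The libraries held between 11901342 and 17444034 reads, and depth did not differ by group beyond the spread (exact two-sided permutation test, p = 0.635). Scrt1 fell from between 11.7 and 18.2 CPM (reads relative to the library total) in siCtrl to between 1.57 and 5.55 in siScrt1, by 2.06 on the log2 scale (SE 0.31, limma, adjusted p = 0.00618). Summed markers of β-cells ran from 103520 to 166720 CPM in siCtrl and from 105360 to 151620 in siScrt1, and those of α-cells from 213.1 to 582.2 and from 210.4 to 463.5. Acinar, endothelial and immune markers summed to at most 5.16 CPM in any library and mesenchymal markers to at most 30.6. Summed δ- and PP-cell markers ran from 16.5 to 82.3 CPM over all libraries. Duct markers ran from 187.6 to 267.2 in siCtrl and from 201.03 to 266.8 in siScrt1. No marker gene with enough reads for a test was called. Acinar and endothelial markers summed to at most 1.31 CPM, so that the lack of calls says little for them. Of the 12941 genes tested 136 were called at an adjusted p under 0.05 (Benjamini-Hochberg over all genes), or 1.05%, and 48 of these were raised in siScrt1, or 0.371%. A fit with the library number as a block called 259. The labels do not say whether libraries came from separate animals or cultures, so p-values measure the spread between these libraries only.

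Mov10 (ENSRNOG00000012946) was scarce in siCtrl cells. It had 95, 92, 110, 96 and 95 reads in siCtrl replicates 1 to 5, or 7.09, 7.09, 6.69, 6.49 and 7.26 CPM. The siScrt1 libraries, from A to E, held 150, 315, 197, 267 and 274 reads of it, or 12.6, 18.1, 14.3, 17.6 and 17.9 CPM. The groups did not overlap, the lowest siScrt1 library lying well above the highest siCtrl library, and siScrt1 replicate A was the lowest of its group. On average the level went from 6.92 ± 0.32 CPM to 16.1 ± 2.49 CPM (SD, n = 5 each), which is 2.35-fold in the limma fit (log2 fold change 1.23, SE 0.11). Scrt1 was at 5.55, 4.24, 4.28, 2.24 and 1.57 CPM in siScrt1 replicates A to E. Replicate A thus also kept the most Scrt1, while replicate B had the most Mov10 and replicate E the least Scrt1. A relation between the 2 genes within the group was not tested. In bulk RNA a larger number of cells that express a gene and more of its RNA per cell cannot be told apart.

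**Figure D2:**
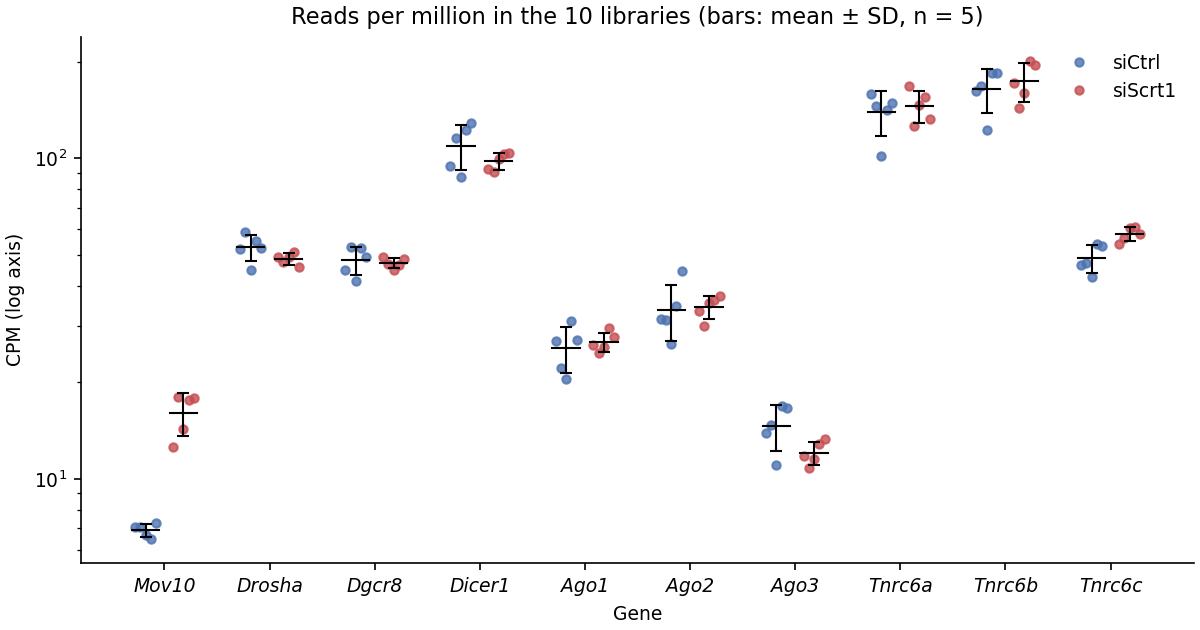
CPM in each library on a logarithmic axis for the 10 genes; blue points are siCtrl and red points siScrt1 libraries, and black bars give the mean ± SD of 5. The points of Mov10 form separate clouds, 6.49 to 7.26 and 12.6 to 18.1 CPM, and those of every other gene overlap.

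The question for the remaining 9 genes was whether they moved with it. None was shown to. By limma 0 of 9 were called, against 1.05% of the 12941 genes tested, and by limma-voom 0 of 9, against 114 of the 12941. Counts of 0 among so few genes are near these shares. In the limma fit 2 of 9 had an unadjusted p under 0.05, against 11.1% of all genes tested. The CPM of the groups overlapped in all 9, as they did in all but 2.96% of the genes tested. In deposited TPM (reads per length, scaled between libraries), the groups did not overlap for Tnrc6c, as given below. Changes in log2 ran from -0.23 (Ago3) to 0.29 (Tnrc6c). Of the 9, 6 lay above and 3 below 0, where 51.0% of all genes tested lay above 0. The median of the 9 was 0.08, against 0.00 over all genes tested. No upper 95% limit exceeded 1.35-fold and no lower limit fell below 0.729-fold, so that changes as large as that of Mov10 lie outside all 9 intervals.

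**Figure D3:**
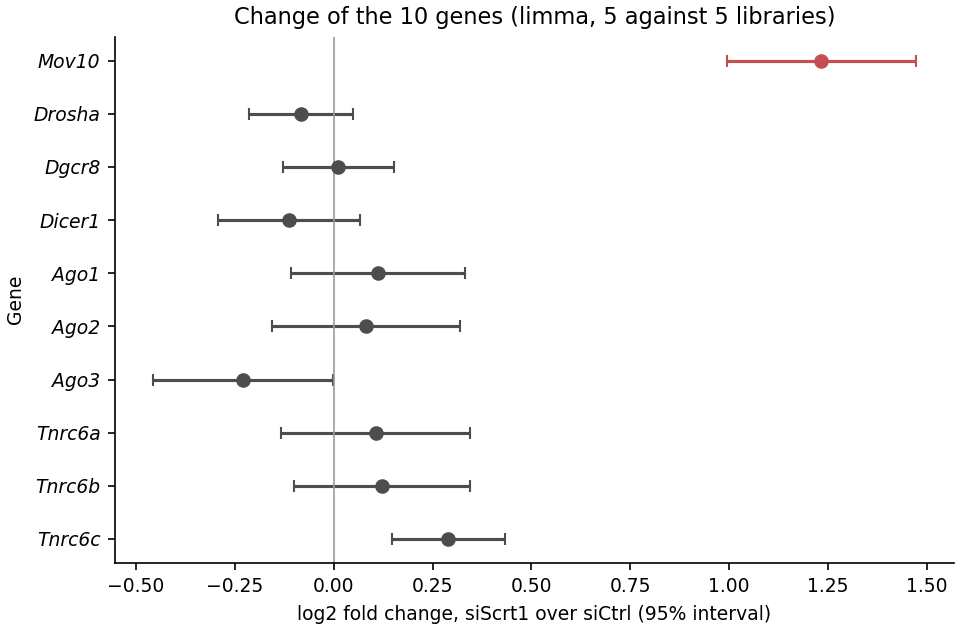
Log2 fold change (siScrt1 over siCtrl, x axis) of the 10 genes with its 95% interval from the limma fit, 5 against 5 libraries. Mov10 is at 1.23, and the intervals of the other 9 lie between -0.46 and 0.43.

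The microprocessor genes showed no change beyond the spread between libraries. Drosha, the nuclease that releases the hairpin, had 52.1, 58.9, 45.0, 55.1 and 52.6 CPM in siCtrl and 49.2, 47.4, 49.3, 50.9 and 45.7 CPM in siScrt1. Its log2 change was -0.08 (95% interval -0.21 to 0.05, limma, adjusted p = 0.655). Dgcr8, which recognises the primary transcript, had 44.8, 52.7, 41.3, 52.4 and 49.2 CPM in siCtrl and 49.2, 46.8, 44.9, 46.4 and 48.5 CPM in siScrt1. The siScrt1 values of both genes fell inside the siCtrl range. The change of Dgcr8 was the smallest of the 10, 0.01 in log2 (interval -0.13 to 0.15, limma, adjusted p = 0.967), and its sign turned in 3 alternative fits.

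Dicer1, which cuts the precursor hairpin, had 94.8, 115, 87.2, 122 and 129 CPM in siCtrl and 92.6, 90.7, 99.9, 103 and 104 CPM in siScrt1. The siScrt1 libraries were again inside the siCtrl range, and the log2 change was -0.11 (interval -0.29 to 0.07, limma, adjusted p = 0.654). Dicer1 is represented by 1 transcript, yet its estimated reads were more than 0.01 away from a whole number in all 10 libraries, as happens when kallisto shares reads between transcripts.

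Among the Argonautes, Ago2 is the member able to cut a target. It had 31.6, 31.3, 26.4, 34.6 and 44.4 CPM in siCtrl and 33.4, 29.9, 35.4, 36.1 and 37.1 CPM in siScrt1. Ago1 had 27.0, 22.1, 20.5, 31.0 and 27.1 CPM in siCtrl and 26.1, 24.7, 25.7, 29.5 and 27.6 CPM in siScrt1. Both spread more in siCtrl than in siScrt1, and neither was called, with log2 changes of 0.08 (interval -0.16 to 0.32, limma, adjusted p = 0.832) for Ago2 and 0.11 (interval -0.11 to 0.33, limma, adjusted p = 0.729) for Ago1.

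Ago3 was the least abundant Argonaute and the gene with the lowest change of the 10. It had 13.9, 14.7, 11.0, 16.8 and 16.6 CPM in siCtrl and 11.8, 10.8, 11.5, 12.8 and 13.3 CPM in siScrt1. The siScrt1 libraries lay below 4 of the 5 siCtrl libraries and overlapped the lowest, siCtrl replicate 3. The log2 change was -0.23 (interval -0.46 to -0.001, limma, adjusted p = 0.449, and 0.251 with the library number as a block), which is not a call. Ago3 was also set against its paralogs, as a share of the summed deposited TPM of Ago1, Ago2 and Ago3 in the same library. It took between 18.2% and 20.9% in siCtrl and between 15.3% and 16.5% in siScrt1. These shares did not overlap, but they were computed after the CPM had been seen and were not tested. By the same tolerance of 0.01, reads of Ago1 and Ago3 were fractions in 3 siScrt1 libraries each and whole in the other 7.

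The Tnrc6 genes encode the scaffolds that Argonaute binds, and Tnrc6c showed the second-highest change of the 10. It had 46.4, 47.01, 42.7, 54.1 and 53.4 CPM in siCtrl and 53.9, 56.5, 60.6, 61.2 and 57.9 CPM in siScrt1. In CPM the groups touched at 1 point, siCtrl replicate 4 being just above siScrt1 replicate A. In deposited TPM they did not overlap, at 6.94 to 8.26 in siCtrl and 9.03 to 9.95 in siScrt1. Deposited TPM was scaled between libraries, and its sums ran from 821278 (siCtrl replicate 2) to 1153950 (siCtrl replicate 3). The separation of Tnrc6c thus depends on that scaling and not on its length. How many of all genes separate in TPM was not counted. The log2 change was 0.29 (interval 0.15 to 0.43, or 1.11 to 1.35-fold), with an unadjusted limma p of 0.000784 and an adjusted p of 0.0615 over all genes. It was the 165th smallest p of the 12941, outside the 136 that were called. With the library number as a block, the adjusted p was 0.0604, and siScrt1 was higher in 5 of 5 numbered pairs.

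Tnrc6a and Tnrc6b were the genes with the most reads. Tnrc6a had 159, 146, 101, 141 and 149 CPM in siCtrl and 168, 126, 146, 155 and 133 CPM in siScrt1. Tnrc6b had 163, 168, 122, 185 and 185 CPM in siCtrl and 171, 143, 160, 202 and 195 CPM in siScrt1. Their log2 changes of 0.11 (interval -0.13 to 0.34, limma, adjusted p = 0.772) and 0.12 (interval -0.10 to 0.35, limma, adjusted p = 0.703) stayed within the spread between libraries.

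SiCtrl replicate 3 stood apart at the low end. It had the lowest CPM of its group in all 9 of these genes, though not in Mov10. In deposited TPM, siCtrl replicate 2 was lower for Ago1 (6.80 against 7.15) and Tnrc6c (6.94 against 7.14). These values carry the scale of each library, the TPM sums being 821278 in replicate 2 and 1153950 in replicate 3. Replicate 3 also had the largest share of reads on the insulin genes Ins1 and Ins2, 14.97% against 8.88% to 12.6% in the other siCtrl libraries. The part of the insulin share in these levels was not tested. Without this library the log2 change was -0.30 for Ago3 (limma, adjusted p = 0.209) and 0.27 for Tnrc6c (limma, adjusted p = 0.113), and none of the 9 genes was called. Insulin shares ran from 9.38% to 13.96% in siScrt1 and did not differ by group beyond the spread (exact two-sided permutation test, p = 0.460).

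Levels of different genes can be set side by side only per length, as the deposited TPM. In siCtrl, Tnrc6a was highest at 17.1 ± 2.38 TPM (SD, n = 5), above every value of the next gene. A block of 7 genes followed between 7.64 ± 0.61 (Tnrc6c) and 10.8 ± 0.61 TPM (Drosha), in the order Drosha, Ago2, Dicer1, Dgcr8, Tnrc6b, Ago1 and Tnrc6c, in which each gene overlapped the next. Ago3 stood below this block at 4.35 ± 0.58 TPM, and Mov10 was lowest at 1.73 ± 0.11 TPM, both without overlap. In siScrt1, Tnrc6a was again highest, at 18.2 ± 1.99 TPM, and the same 7 genes lay between 8.97 ± 0.39 (Ago1) and 10.6 ± 0.82 TPM (Ago2). At the lower end Mov10, at 4.11 ± 0.56 TPM, and Ago3, at 3.70 ± 0.27 TPM, had overlapping ranges, with Mov10 above Ago3 in 4 of 5 libraries.

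Mov10 had 1.85, 1.66, 1.77, 1.57 and 1.78 TPM in siCtrl and 3.35, 4.67, 3.73, 4.23 and 4.59 TPM in siScrt1. Relative to the geometric mean of the other 9 genes in the same library, this was 19.7%, 19.3%, 22.8%, 16.1% and 17.9% in siCtrl and 34.7%, 54.2%, 39.8%, 45.6% and 47.9% in siScrt1. The ratio needs no scaling between libraries, and its groups did not overlap. Because Mov10 was selected on its rise in these same libraries, this adds no support for that rise. Even after the rise Mov10 was thus below the typical level of its partners in every library.

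**Figure D4:**
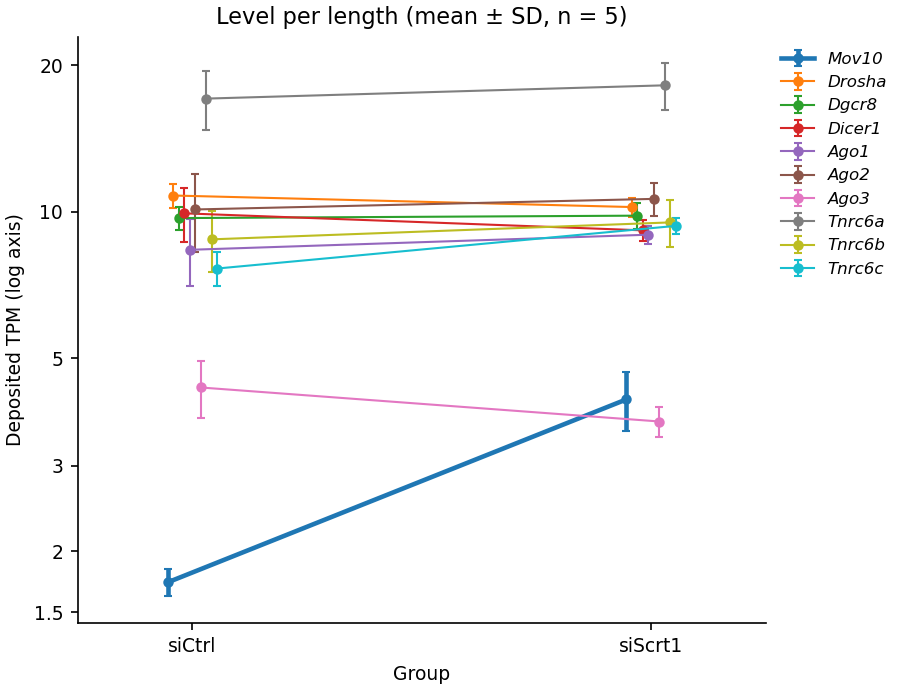
Deposited TPM of the 10 genes in each group on a logarithmic axis, as mean ± SD of 5 libraries, joined by lines. Mov10 rises from 1.73 to 4.11 and meets Ago3, which is at 4.35 and 3.70, while Tnrc6a stays on top and 7 genes stay close to each other.

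Single transcripts were tested in the same way. The 10 genes have 12 transcripts in the table, 8 genes with 1 and Tnrc6a and Tnrc6b with 2 each, and all 12 were tested among 17585. Of the 11 that do not belong to Mov10, 0 were called (limma), where 0.415% of all transcripts tested were called. Tnrc6a used both of its transcripts, with ENSRNOT00000086492.1 taking 71.2% ± 6.50 (SD, n = 5) of its siCtrl reads and 74.9% ± 7.003 of its siScrt1 reads. Tnrc6b rested on 1 transcript, ENSRNOT00000033975.5, with 97.3% ± 2.21 and 97.5% ± 1.63 of its reads. Its second transcript was listed at 0 reads in siCtrl replicate 2 and siScrt1 replicate E, and at 130.7 reads in its highest library. The use of these isoforms therefore differed between groups by less than the spread between libraries.

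The rest of the pathway was read from 7 lists with 98 symbols, of which 93 were in the table. They stand for 94 gene identifiers, since Ncbp2 has 2, and 89 of these had enough reads. Of these 89, 0 were called by limma, against 1.05% of all genes tested, and 0 by limma-voom, against 114 of 12941. These counts of 0 are near the shares over all genes. In the limma fit 8 had an unadjusted p under 0.05 (3 higher and 5 lower in siScrt1), which is 8.99% against 11.1% of all genes tested. The median log2 change of the 89 was 0.00, the same as over all genes tested, and 44 lay above and 45 below 0.

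By role, the 15 microprocessor partners tested ran from -0.21 to 0.28 in log2. The lowest was 1 of the 2 identifiers of Ncbp2, a subunit of the cap-binding complex (ENSRNOG00000001746), whose other identifier (ENSRNOG00000048589) was at 0.28, so that the reads of Ncbp2 may be split between them. Where 51.0% of all genes tested lay above 0, 10 of the 15 genes for export, dicing and loading lay below it, with a median of -0.10. One of them, Xpo5, which carries precursors out of the nucleus, did not overlap between the groups, at 69.96 to 78.9 CPM in siCtrl and 61.3 to 68.3 CPM in siScrt1. It was not called (log2 change -0.17, interval -0.29 to -0.04, limma, adjusted p = 0.269), and it is named here after its values were seen. Of the 89 pathway genes, 2 did not overlap (Xpo5 and Pabpc1), or 2.25% against the 2.96% of all genes given above. Of the 15 genes for decapping and translational repression, the 11 relatives and partners of the Mov10 helicase and the 9 for tailing and turnover, none went beyond 0.22 in log2 in either direction. Of the rest of the Argonaute family, Ago4 had a log2 change of -0.05 (interval -0.30 to 0.19, limma, adjusted p = 0.902). The Piwi genes Piwil1 and Piwil4, known from the germline, were at 0.29 in log2 each (intervals -0.36 to 0.94 and -0.16 to 0.75), at means of at most 2.55 CPM, and were not called (limma, adjusted p = 0.771 and 0.642). Mov10l1, the germline paralog of Mov10, had too few reads for a test, with a mean of 0.0149 CPM in siCtrl and 0.0130 CPM in siScrt1.

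Among the 21 deadenylation genes, the lowest changes were those of Pabpc1, the main cytoplasmic poly(A)-binding protein, and Btg1, which recruits deadenylases. Pabpc1 had 480, 569, 485, 500 and 518 CPM in siCtrl and 412, 445, 421, 366 and 335 CPM in siScrt1. These ranges did not overlap. The log2 change was -0.34 (interval -0.53 to -0.15) and was not called (limma, adjusted p = 0.115). Btg1 was at -0.33 in log2 (limma, adjusted p = 0.146), and at -0.40 (limma, adjusted p = 0.0385) without siScrt1 replicate A. Both were called with the library number as a block, at adjusted p = 0.0367 for Pabpc1 and 0.0386 for Btg1 (limma), so that the block raised the count for the pathway from 0 to 2. That is 2.25% of the 89, against 2.00% of all genes in the same fit. Both genes were named after their values were seen.

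**Figure D5:**
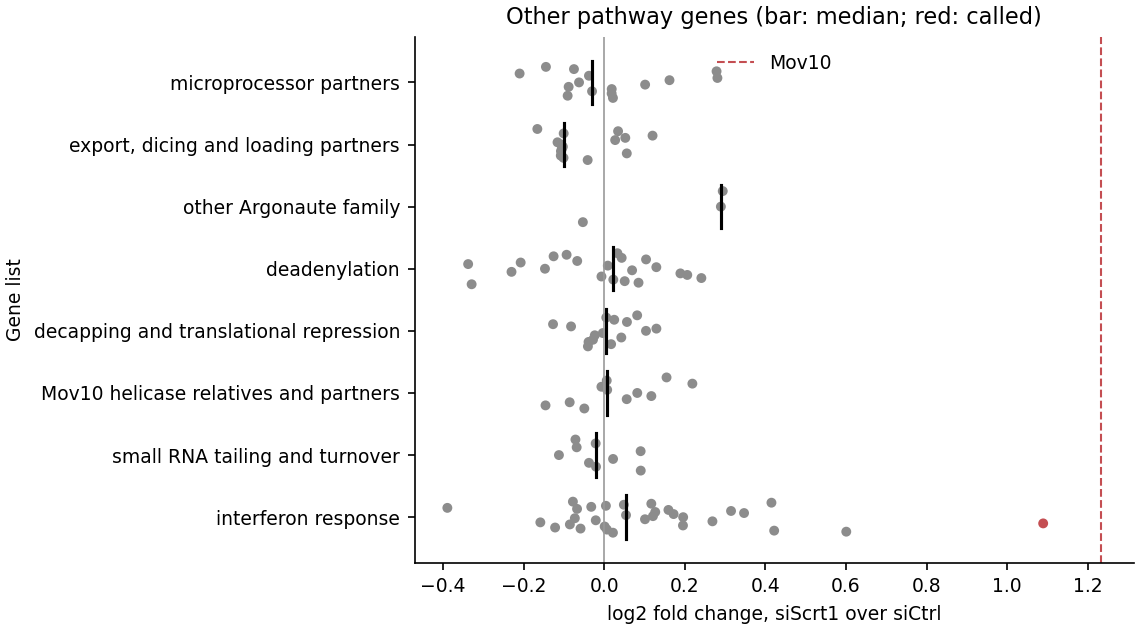
Log2 fold change (x axis) of each tested gene of 7 pathway lists and of the interferon list (rows); black bars are list medians, red points genes with an adjusted p under 0.05 and the dashed line Mov10. The pathway genes lie between -0.34 and 0.29, and the only red point is Ifih1 at 1.09.

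Interferon response genes were listed because Mov10 can belong to them. Of 31 tested, 1 was called, against 1.05% of all genes, and 3 had an unadjusted p under 0.05, all higher in siScrt1, against 11.1% of all genes. In all 21 of 31 changes lay above 0, where 51.0% of all genes tested did. The list median was 0.05 in log2 against 0.00 over all genes, and a lean of the list was not tested. The gene called was Ifih1, which encodes a cytoplasmic sensor of double-stranded RNA. It had 7.77, 10.7, 5.59, 6.76 and 8.41 CPM in siCtrl and 12.4, 13.8, 16.2, 19.3 and 19.4 CPM in siScrt1. All siScrt1 libraries were above all siCtrl libraries, by 1.09 in log2 (SE 0.16, limma, adjusted p = 0.00528). The other 2 with a low unadjusted p were Irf1 and Parp14, at 0.27 and 0.35 in log2, which were not called (limma, adjusted p = 0.0967 and 0.151). Isg15 and Ddx58, both induced by interferon, were at -0.07 and 0.01 in log2 and were not called either (limma, adjusted p = 0.911 and 0.992). The uncalled genes ran from -0.39 in log2 (Sp100, limma, adjusted p = 0.509) to 0.60 (Bst2, limma, adjusted p = 0.609), both with few reads. Ifit1, Ifit3, Mx1 and Oas1a stayed below 1 CPM on average in both groups. With the library number as a block the count went from 1 to 3, through Cxcl10 and Parp14. Among the interferon genes, only the gene called, Ifih1, had its promoter window looked at. The window held the core CAGGTG, as 18.8% of all windows did. It also held a pair of GAAA half-sites 2 bases apart, a form of the interferon response element. That pair was in 3.92% of all windows and in 0 of the 7 windows above. Any link of these letters to the change of Ifih1 was not tested.

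The genes beside Mov10 on the chromosome were looked at for a rise in common. In the RefSeq order of GRCr8 these are Ppm1j and Rhoc on one side and Capza1 and St7l on the other. Capza1, an actin-capping subunit, and St7l had log2 changes of -0.09 (interval -0.25 to 0.07, limma, adjusted p = 0.694) and -0.05 (interval -0.24 to 0.14, limma, adjusted p = 0.876). Ppm1j was listed at 0 in all 10 libraries. Rhoc, a small GTPase, had only 14 to 26 reads in siCtrl and 12 to 50 in siScrt1. Its log2 change was 0.84 with a wide interval (0.14 to 1.53) and was not called (limma, adjusted p = 0.330), so that a rise of the neighbour could not be shown at this depth.

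The genes whose pattern was most like that of Mov10 were found by Pearson's r of log2(CPM + 0.5) over the 10 libraries, among 10123 genes that averaged 5 CPM or more. They were Cd1d1 (r = 0.974), AABR07039334.1 (0.954), Syngr2 (0.953), Perp (0.947) and Cabcoco1 (0.945). The r reflects the step between the groups above all: with group means removed it was 0.595, 0.221, 0.313, 0.762 and 0.379, in the same order. Cd1d1, an antigen-presenting molecule for lipids, was at 11.7 to 13.4 CPM in siCtrl and 20.2 to 26.5 CPM in siScrt1. Among the 9 other genes of the machinery, Tnrc6c had the highest r, 0.784, at rank 105, falling to 0.187 with group means removed. Ago3 had the lowest, -0.553, at rank 9097. These values come from 10 libraries in 2 groups and describe them only.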

How the data were processed

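RNA-seq libraries (5 siCtrl, 5 siScrt1) were grouped by their titles. The authors used FastQC for read quality and Trimmomatic for trimming. They quantified transcripts with kallisto against Rnor6 and scaled the estimates with Sleuth (versions not given in the sources used here). The deposited table therefore holds 2 scaled signal values, estimated counts and TPM, summed here per gene. Because these are not raw counts, log2(scaled estimate + 0.5) was tested with limma 3.58.1 (R 4.3.3, trended eBayes, group only). Fold changes are on that scale, which understates those of low genes. Dividing by what 1 read was worth in each library gave reads and CPM. Genes needed the CPM of 10 reads in a median-sized library in 5 libraries and 15 reads in all. Transcripts needed 5 reads in 47% of libraries. The fit was tested on simulated data. The members, gene lists and alternatives were chosen with earlier results of these data known. Named genes were the 10 members, Scrt1, Ins1 and Ins2, called list genes, 2 neighbours on each side of Mov10 and the 5 genes most like it. Every other list gene in the text was named after its values were seen. The deposited table numbers libraries 1 to 5 in each group. Deviations of same-numbered libraries correlated in all 5 pairs (r from 0.131 to 0.351). Pairs with unlike numbers ran from -0.179 to 0.167, which overlaps that range, and what the number marks is not stated. A fit with the number as a block was also made. Of the pathway and interferon symbols, 7 were not analysed here.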

Additional observations from a re-analysis of the deposited data

How the results depend on the processing

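Under 10 alternative fits and the removal of each library in turn, none of the 9 genes other than Mov10 was called in any of these 20 fits. The log2 change of Mov10 ran from 0.90, with log2(TPM + 1), to 1.30, and that of Tnrc6c from 0.26 to 0.32 with an adjusted p from 0.0513 to 0.249. Dgcr8 changed sign with limma-voom (-0.0214) and without siCtrl replicate 3 or siScrt1 replicate A, over a range from -0.0178 to 0.0403 when single libraries were left out. Of all genes, 136 were called, 259 with the library number as a block, and 62 to 133 with 1 library left out, the fewest without siScrt1 replicate D. Leaving out siCtrl replicate 4 (82) or 5 (77) or siScrt1 replicate B (83), C (87), D (62) or E (64) lowered that count by more than 1.5 times. The pathway count of 0 became 2 with the block, and 0 to 1 with a library left out (Btg1 without siScrt1 replicate A). The interferon count of 1 became 3 with the block, and Ifih1 was called in 20 of 20 fits, with an adjusted p from 0.00476 to 0.0190 (limma). The order of levels kept 20 of 20 ranks with TPM rescaled and 14 of 20 with only the transcript with most reads, where Ago3 and Mov10 kept theirs. Depth limits Rhoc and the second Tnrc6b transcript.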
